A study of Homo sapiens with 4 samples.

Results

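The transcripts of 42 cell cycle genes were examined in BEAS-2B cells, all of them symbols of a fixed list that were found among the 24424 gene symbols of the 4 count files. By role, 12 of them serve DNA replication (the MCM helicase genes MCM2 to MCM7, CDC6, CDT1, PCNA, RRM1, RRM2 and TYMS), 23 serve mitosis, and 7 regulate the passage from G1 into S phase. All 42 averaged 16 or more normalized counts across the libraries, as did 13072 of all symbols.

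BEAS-2B is an established human line from bronchial epithelium that was immortalised with an adenovirus-SV40 hybrid virus. Its SV40 large T antigen binds the retinoblastoma protein and p53, both of which restrain the cell cycle. All cells were of the wild type genotype and were grown in the same bronchial epithelial medium. Control cells had no treatment. LPS cells received lipopolysaccharide, a bacterial outer membrane component, for 2 hr without peptide. WT PDZ+LPS cells received a wild-type PDZ peptide, derived from the tight junction protein ZO-1, over 24 hr before the 2 hr of LPS. The mut PDZ+LPS cells had a mutated form of that peptide on the same schedule. The labels do not say whether Control and LPS cells were given a vehicle for those 24 hr. Each condition was 1 poly(A)-selected library, so no difference has a replicate check, no test between conditions was possible, and no p-value is given. The 95% intervals are exact (Clopper-Pearson) and compare the reads of 2 libraries. They hold the counting error and nothing else, because the reads carried no molecular identifiers and are not independent molecules. The share of all genes beyond counting error was not computed, so counts of members beyond it have no background beside them.

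Cells license their origins of replication in G1, when CDC6 and CDT1 load the MCM helicase onto DNA, and copy their genome in S phase with nucleotides from ribonucleotide reductase and thymidylate synthase. Cyclin D and cyclin E with their kinases drive the cell into S phase, and cyclin A and cyclin B with CDK1 drive it into mitosis. Replication genes are classic targets of the E2F factors, and their transcripts peak at the G1/S border. Mitotic genes peak later, in G2 and M, and many are bound through a CHR element and CCAAT boxes by the DREAM complex, the B-MYB-MuvB complex, FOXM1 and NF-Y.

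The promoters of the members carried these elements to different degrees. RefSeq start sites (GRCh38.p14, a later build than the hg19 of the counts) were found for 33 of the 42 members, with 46 windows of 250 bases before a start. A CHR (TTTGAA or TTTAAA on either strand) was in 15 of the 27 windows of mitotic members (55.6%), in 2 of the 14 of replication members (14.3%) and in 18.9% of the 22321 windows of all 16160 genes. An E2F motif (TTTCCCGC, TTTCGCGC, TTTGGCGC or TTTGCCGC on either strand) was in 6 of the 14 replication windows (42.9%), in 2 of the 27 mitotic windows (7.41%) and in 3.31% of all windows. The CCAAT box (CCAAT on either strand) did not separate mitotic from replication members, with 77.8% of mitotic, 78.6% of replication and 32.7% of all windows. Of the 5 windows of G1/S regulators, 1 held a CHR, 3 an E2F motif and 3 a CCAAT box. The further lists of mitotic and S phase genes described below had 81 and 78 windows. Of these, 49.4% and 15.4% held a CHR, 6.17% and 20.5% an E2F motif, and 63.0% and 42.3% a CCAAT box. Windows of the same gene can overlap, and a match is a description of the letters and not a binding site.

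The 120 bases before the start are printed for 5 mitotic members and for 2 replication members, MCM6 and CDT1, that show the contrast. CENPA, CDC20 and KIF11 were lower in LPS than in Control by at least 1.2-fold, and CCNB1 and MKI67 were not. The windows were chr2:26785936-26786055, chr1:43358861-43358980, chr10:92593010-92593129, chr5:69167030-69167149 and chr16:88803669-88803788 on the plus strand and chr10:128126424-128126543 and chr2:135876444-135876563 on the minus strand, and each is written 5′ to 3′ along its gene. Capitals mark CHR, CCAAT and E2F matches on either strand, which overlap in MKI67 (a CHR and a CCAAT box) and in MCM6 (E2F matches on both strands).
CENPA: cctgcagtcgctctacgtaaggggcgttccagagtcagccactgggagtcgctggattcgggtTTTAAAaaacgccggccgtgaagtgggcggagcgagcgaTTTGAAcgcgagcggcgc
CDC20: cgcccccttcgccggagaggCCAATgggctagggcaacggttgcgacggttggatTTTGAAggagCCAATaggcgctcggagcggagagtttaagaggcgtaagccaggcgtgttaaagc
KIF11: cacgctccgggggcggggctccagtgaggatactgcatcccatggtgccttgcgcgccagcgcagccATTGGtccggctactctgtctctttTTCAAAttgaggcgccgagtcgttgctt
CCNB1: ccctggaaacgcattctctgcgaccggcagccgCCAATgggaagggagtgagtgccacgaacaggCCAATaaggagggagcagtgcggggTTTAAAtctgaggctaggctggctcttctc
MKI67: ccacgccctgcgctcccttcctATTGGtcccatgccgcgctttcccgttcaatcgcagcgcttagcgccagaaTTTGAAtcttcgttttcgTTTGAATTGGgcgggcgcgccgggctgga
MCM6: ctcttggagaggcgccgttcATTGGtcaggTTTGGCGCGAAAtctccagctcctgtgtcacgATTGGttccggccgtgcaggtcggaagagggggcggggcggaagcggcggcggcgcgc
CDT1: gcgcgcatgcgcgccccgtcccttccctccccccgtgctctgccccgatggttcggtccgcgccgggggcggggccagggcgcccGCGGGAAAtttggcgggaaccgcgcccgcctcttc
All 5 mitotic members shown held a CHR in these 120 bases, also the 2 whose level differed little between LPS and Control. Neither replication member shown did. These members were picked to show the contrast, so their count does not test it. In the longer windows searched, 14 of 19 mitotic genes and 2 of 10 replication genes (RRM1 and RRM2) held a CHR. CENPA also had an E2F match 232 to 225 bases before the start, outside the bases printed.

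The libraries summed to between 19682929 counts (mut PDZ+LPS) and 25155647 counts (LPS). Counts were divided by geometric size factors, and the median log2 fold change of the 13072 genes then lay between -0.02 and 0.01 in all 6 comparisons. Of 15 bronchial epithelial markers 14 averaged 16 or more normalized counts, with EPCAM at 34.8 to 49.5 and KRT15 at 0 to 2.35, and their sum was 46674 to 51187 in 3 libraries and 64598 in mut PDZ+LPS. Leukocyte markers summed to 371 to 542, nearly all of it CD14, and 5 of the 10 were at 0 in every library. Of 10 fibroblast and smooth muscle markers 5 averaged 16 or more, with a sum of 21360 to 25658. Of 8 differentiated airway markers 1 did (sum 76.6 to 129), and of 6 endothelial markers 1 did (sum 30.5 to 40.4). In mut PDZ+LPS/LPS the log2 fold change was lower for longer transcripts, with Spearman's rho of -0.60 across 12130 genes, against 0.07 in WT PDZ+LPS/LPS. A weaker trend of the opposite sign was present in LPS/Control (0.15) and in WT PDZ+LPS/Control (0.18). Values of single members in LPS/Control are given uncorrected. Genes are not independent replicates, and rho is a description. The main fold changes of mut PDZ+LPS are therefore given also corrected for length and GC content of the transcript, taken from each gene's longest protein-coding transcript. Exons of 16 members overlap those of another annotated gene, and for 11 of them such a gene is among the counted symbols, for 10 on the opposite strand (TYMS and ENOSF1, CDC25C and FAM53C, CENPA and SLC35F6 on the same strand, for example), and whether the counting used the strand is not given in the sources used here.

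**Figure D1:**
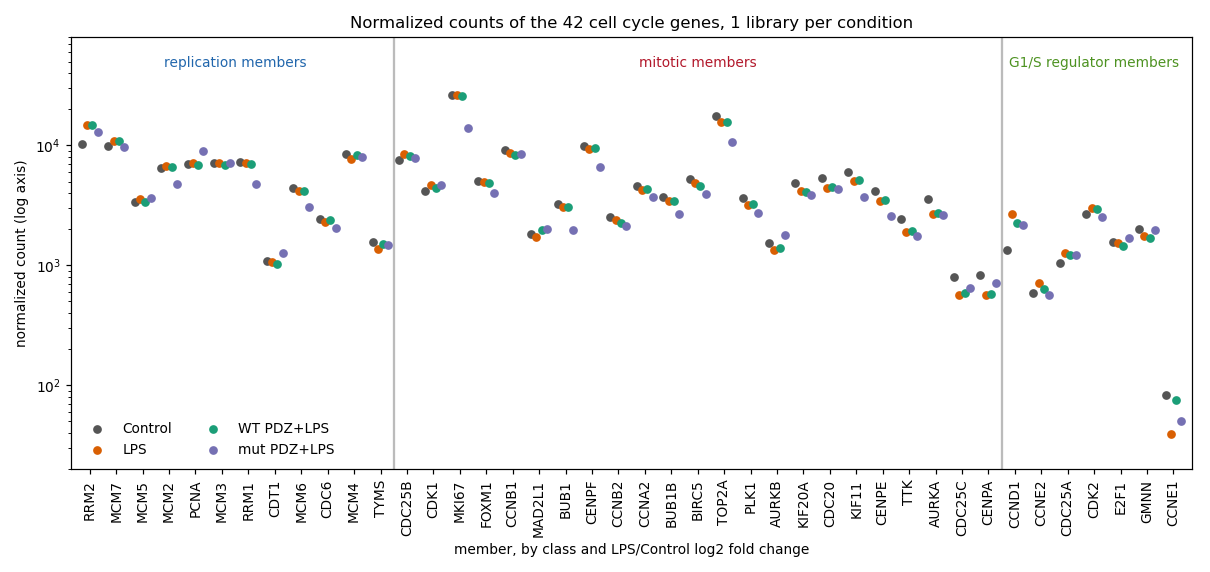
Normalized counts (log axis) of the 42 members, 1 point per library, ordered within each class by the LPS/Control log2 fold change. Levels ran from 39.5 (CCNE1 in LPS) to 26551 (MKI67 in LPS), and the mut PDZ+LPS point stood below the other 3 for MKI67, TOP2A, CENPF, BUB1 and RRM1.

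Scaled per kilobase of transcript and per library total (the usual scale of RPKM), PCNA, the sliding clamp of the replication fork, was the highest member in Control at 239.5, at rank 180 of 12130 genes. CCNB1 followed at 194, MCM7 at 149 and TOP2A at 143. CCNE1 was the lowest at 1.87, below CCNE2 at 8.14 and CDC25A at 12.8. Replication and mitotic genes were well expressed in the untreated cells, and cyclin E was near the bottom of the list.

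The members were first compared between LPS and Control. At 2-fold with at least 16 normalized counts in either library, 1 of the 42 members was called, against 4.87% of the 13277 genes that met the same count rule. The called gene was CCNE1, which encodes cyclin E1, the partner of CDK2. It had 82.7 normalized counts in Control, 39.5 in LPS, 74.7 with WT PDZ and 50.5 with mut PDZ. These rest on 95, 42, 74 and 43 reads, the fewest of any member. LPS and mut PDZ+LPS were the low libraries and Control and WT PDZ+LPS the high ones. The log2 fold change in LPS/Control was -1.05, with a counting interval from -1.63 to -0.53, so that the interval reaches well inside 2-fold, and a pseudocount of 5 ended the call.

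CCND1 lay just under the threshold in the other direction. It encodes cyclin D1, which with CDK4 or CDK6 phosphorylates the retinoblastoma protein. It had 1344 normalized counts in Control, 2686 in LPS, 2253 with WT PDZ and 2157 with mut PDZ, so Control stood below the 3 libraries with LPS. The LPS/Control log2 fold change was 0.998 (0.91 to 1.09), a fold of 1.998. CCNE2, the gene of cyclin E2, had 586, 718, 639 and 564 normalized counts in the same order, a log2 fold change of 0.29 in LPS/Control. CDC25A, the phosphatase that activates CDK2, and CDK2 itself were higher in LPS by 0.29 and 0.18. The transcription factor gene E2F1 had 1563, 1530.5, 1463 and 1705 normalized counts, and its LPS/Control log2 fold change of -0.03 lay within counting error. GMNN encodes geminin, the inhibitor of CDT1, and had a log2 fold change of -0.20. Of the 7 regulators of G1/S, 3 were at least 1.2-fold higher in LPS (CCND1, CCNE2 and CDC25A) and 1 was lower (CCNE1). The 1.2-fold limit was chosen after the values were seen, and 15.5% of the 13072 genes passed it upward and 14.8% downward in LPS/Control.

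Replication members were close to their Control level in LPS. Over the 12 members the log2 fold change had a median of -0.01, that of all genes was -0.00, and single members ran from -0.18 (TYMS) to 0.55 (RRM2). RRM2, the regulated subunit of ribonucleotide reductase, stood apart. It had 10198 normalized counts in Control, 14902 in LPS, 14873 with WT PDZ and 12901 with mut PDZ, and Control was the lowest. The LPS/Control log2 fold change was 0.55 (0.51 to 0.58), and RRM2 was the only replication member that differed by 1.2-fold or more. Its partner subunit RRM1 had 7266, 7199, 7072 and 4808 normalized counts in the same order, with Control and LPS not resolved from counting error. PCNA had 7032, 7153, 6827 and 8925 normalized counts, and here too Control and LPS were not resolved. The 6 MCM genes lay between -0.12 (MCM4) and 0.14 (MCM7) in LPS/Control, and the licensing factors CDC6 and CDT1 at -0.09 and -0.04. Beyond counting error, 4 replication members were higher in LPS, 4 were lower and 4 were not resolved.

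Mitotic members were lower in LPS than in Control by a small amount that most of them shared. The median log2 fold change of the 23 was -0.13, and 20 of the 23 were below 0, against 50.2% of all 13072 genes and 44% of the 7673 genes that averaged 500 or more. Beyond counting error 18 were lower, 2 were higher and 3 were not resolved, with no share of all genes computed for this rule. At least 1.2-fold lower were 7 of 23 (CENPA, CDC25C, AURKA, TTK, CENPE, KIF11 and CDC20), against 14.8% of the 13072 genes and 4.89% of the 7673. None of the 23 differed by 1.5-fold in either direction, against 6.33% of all genes upward and 4.13% downward. In bulk RNA, fewer cells in G2 and M and less transcript per cell in those phases cannot be told apart.

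CENPA, the histone H3 variant that marks the centromere, was the lowest of the mitotic members. It had 829 normalized counts in Control, 570.1 in LPS, 573 with WT PDZ and 709 with mut PDZ, and Control was the highest. The LPS/Control log2 fold change was -0.54 (-0.69 to -0.39). CDC25C, the phosphatase that activates CDK1 at the entry into mitosis, had 794, 565, 586 and 646 normalized counts in the same order. Its LPS/Control log2 fold change was -0.49 (-0.64 to -0.34), again with Control highest. AURKA, the kinase of the spindle poles, had 3563, 2703, 2721 and 2629.6 normalized counts, and its log2 fold change was -0.40 (-0.47 to -0.33). TTK, the kinase at the head of the spindle checkpoint, had 2443, 1886, 1939.8 and 1758 normalized counts, a log2 fold change of -0.37 (-0.46 to -0.29). For AURKA and TTK all 3 libraries with LPS lay within a narrow range below Control. The kinesins CENPE and KIF11 had log2 fold changes of -0.28 and -0.27, and CDC20, the activator of the anaphase-promoting complex, -0.27.

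By role, the 5 checkpoint genes (BUB1, BUB1B, MAD2L1, TTK and CDC20) had a median log2 fold change of -0.12 in LPS/Control, with all 5 below 0. The 8 genes of the centromere, spindle and chromosomes had a median of -0.20, with 7 of 8 below 0, and the 10 cyclins, kinases, phosphatases and FOXM1 one of -0.10, with 8 of 10 below 0. The 3 mitotic members above 0 were CDC25B, CDK1 and MKI67. CDK1, the mitotic kinase itself, had 4165 normalized counts in Control, 4656 in LPS, 4429.9 with WT PDZ and 4705 with mut PDZ, a log2 fold change of 0.16 (0.10 to 0.22) with Control lowest. CCNB1, the gene of its partner cyclin B1, had 9091, 8729.5, 8319 and 8532, a log2 fold change of -0.06 with Control highest. MKI67, the gene of the proliferation marker Ki-67, was not resolved between LPS and Control (0.02, from -0.01 to 0.04). The remaining mitotic members (PLK1, AURKB, KIF20A, TOP2A, BIRC5, BUB1B, CCNA2, CCNB2, CENPF, BUB1, MAD2L1 and FOXM1) ran from -0.23 (KIF20A) to -0.03 (FOXM1).

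**Figure D2:**
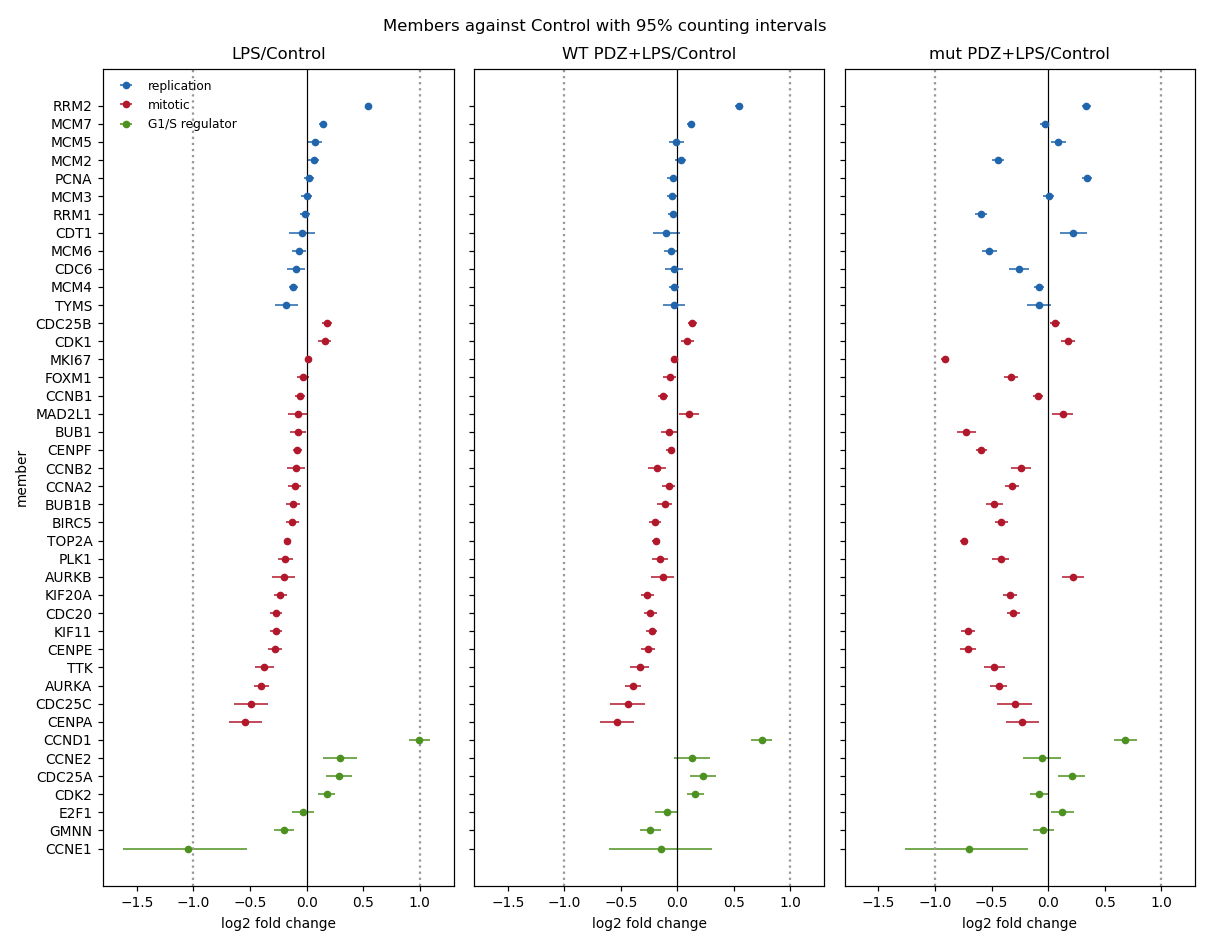
Log2 fold change of each member against the same Control library, for LPS alone and for LPS after either peptide. Bars are 95% counting intervals, dotted lines mark 2-fold, and of the 23 mitotic members 20, 20 and 19 lay below 0 in the 3 panels.

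The replication median exceeded the mitotic median by 0.12 in LPS/Control on the log2 scale, and by 0.16 after the length and GC correction. This gap cannot depend on the size factors, which shift both medians alike, and was 0.12 with geometric, TMM, total-count and upper-quartile scaling. The level of each class does depend on them. In LPS/Control, total-count scaling moved the median over all genes to -0.13, that of replication members to -0.14 and that of mitotic members to -0.26, and MCM2, MCM5, PCNA and MKI67 turned from above to below 0. The other libraries with LPS share the Control library, so their values are set side by side and are not separate evidence. In WT PDZ+LPS/Control the medians were -0.03 for replication and -0.15 for mitotic members, and in mut PDZ+LPS/Control they were -0.06 and -0.33, or -0.00 and -0.30 after correction. Below 0 lay 20 of 23 mitotic members with the wild-type peptide, against 48% of all genes, and 19 of 23 with the mutant, against 51.6%. At 2-fold no member was called in WT PDZ+LPS/Control (4.7% of all genes) or in mut PDZ+LPS/Control (8.09%). At least 1.2-fold lower than Control were 5 of the 23 mitotic members in WT PDZ+LPS, against 14.4% of all genes, and 16 of 23 in mut PDZ+LPS, against 30.8%. Among the 7673 genes that averaged 500 or more, these shares were 4.55% and 28.4%. After the correction the mut PDZ+LPS count was 14 of 23, against 21.8%.

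WT PDZ+LPS was next compared with LPS, which asks how these genes differed when the wild-type peptide came before LPS. At 2-fold no member was called, against 1.37% of all genes. The medians were -0.02 for replication, 0.01 for mitotic and -0.06 for G1/S members, and that of all genes was 0.01. Of the mitotic members 17 of 23 were not resolved from counting error, of the replication members 7 of 12 and of the G1/S members 4 of 7. The share of all genes was not computed for this rule. CCNE1 was the furthest from LPS, with a log2 fold change of 0.90 (0.35 to 1.502), 74.7 against 39.5 normalized counts. CCND1 lay at -0.25 (-0.33 to -0.17), at 2253 against 2686, between Control and LPS. CCNE2 followed at -0.17. CCNB2, the gene of cyclin B2, had 2529 normalized counts in Control, 2367 in LPS, 2237 with WT PDZ and 2141 with mut PDZ. Its value of -0.08 (-0.16 to 0.00) was not resolved from counting error.

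On the upper side, MAD2L1, the MAD2 checkpoint protein that holds CDC20 inactive, had 1832 normalized counts in Control, 1739 in LPS, 1966 with WT PDZ and 2002 with mut PDZ. Its WT PDZ+LPS/LPS log2 fold change was 0.18 (0.08 to 0.27). Both peptide libraries stood above both libraries without peptide. TYMS, thymidylate synthase, had 1553, 1372, 1521 and 1469.9 in the same order, with LPS lowest and a log2 fold change of 0.15 (0.04 to 0.25). No mitotic and no replication member differed by 1.2-fold between WT PDZ+LPS and LPS in either direction, against 6.69% of the 13072 genes upward and 7.08% downward. Of the 7673 genes that averaged 500 or more, as these members did, 0.925% were lower by that much. The absence of lower members lay near that share, and the upward share was not computed for these genes. The 4 mitotic genes furthest below Control in LPS lay close to their LPS level with the wild-type peptide. CENPA lay at 0.01 (-0.16 to 0.17), CDC25C at 0.05, AURKA at 0.01 and TTK at 0.04.

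**Figure D3:**
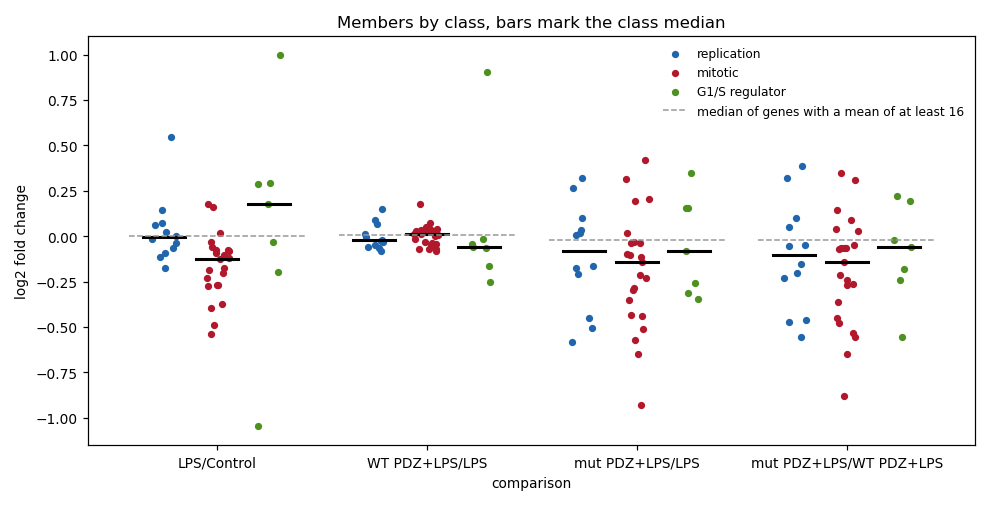
Log2 fold change of each member by class in 4 comparisons, with black bars at the class medians and dashed lines at the median of the 13072 genes. The mitotic median lay at -0.13 in LPS/Control and at 0.01 in WT PDZ+LPS/LPS. Replication and mitotic members spread most widely in the comparisons with mut PDZ+LPS, and G1/S members in LPS/Control.

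In mut PDZ+LPS/LPS the replication and mitotic members spread more widely than in the comparisons above between LPS and Control and between WT PDZ+LPS and LPS. All 42 members ran from -0.93 to 0.42, against -1.05 to 0.998 in LPS/Control. Again no member was called at 2-fold, against 3.95% of all genes. At 1.5-fold 2 members were lower, MKI67 and BUB1, against 9.6% of the 13072 genes, and none was higher, against 6.75%, so the share of members did not exceed that of all genes. MKI67 had 26272 normalized counts in Control, 26551 in LPS, 25703 with WT PDZ and 13935 with mut PDZ. Its log2 fold change was -0.93 (-0.96 to -0.90), and mut PDZ+LPS alone was low. Its transcript of 12678 bases is the longest of the 42, and after the length and GC correction the value was -0.32. BUB1, a checkpoint kinase, had 3255, 3087, 3089.9 and 1972 in the same order, a log2 fold change of -0.65 (-0.73 to -0.56), or -0.49 after correction. TOP2A, topoisomerase II alpha, had 17768, 15759, 15576 and 10596, a log2 fold change of -0.57, or -0.24 after correction. The mutant peptide library was the lowest for each of these 3 genes.

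The long mitotic transcripts lost most of their difference with the correction. CENPF (10307 bases) went from -0.51 to 0.05 and CENPE (8612 bases) from -0.43 to -0.00, and KIF11 (4860 bases) from -0.44 to -0.18. At the short end AURKB (1254 bases), the kinase of the chromosomal passenger complex, had 1537, 1336, 1404 and 1788 normalized counts and went from 0.42 to 0.05. CENPA (1452 bases) went from 0.31 to 0.09. Across the 42 members Spearman's rho of the log2 fold change with transcript length was -0.61, within the 23 mitotic members -0.74, and -0.00 across the 42 after correction. The correction subtracts the length trend of all genes, so a value near 0 after it follows largely from its construction. Across all genes rho was 0.09 after correction. All these points come from the same library pair, so rho is a description of it. Against the trend, MAD2L1 (5468 bases) was at 0.20 before and 0.52 after correction, and PLK1, the Polo-like kinase, at -0.23 and -0.43. The MAD2L1 length is that of its longest annotated coding transcript. Which transcript these cells express was not tested, and both its place against the trend and its corrected value rest on that length.

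Replication members split in mut PDZ+LPS/LPS. RRM1, MCM2 and MCM6 lay at -0.58 (-0.64 to -0.53), -0.51 (-0.56 to -0.45) and -0.45 (-0.52 to -0.38), with transcripts of 3076 to 3736 bases, near the median of 3477.5 bases over all genes. After correction they lay at -0.49, -0.50 and -0.27. MCM2 had 6494, 6787, 6636 and 4775 normalized counts and MCM6 4380.3, 4178, 4205 and 3055, and mut PDZ+LPS was the lowest library for all 3 genes. Of the other 4 MCM genes of the same hexamer, MCM3 lay at 0.00, MCM4 at 0.03, MCM5 at 0.02 and MCM7 at -0.18. After correction these lay at 0.07, 0.25, 0.05 and -0.23, with MCM7 close to MCM6. PCNA and CDT1 were higher, by 0.32 and 0.26, and after correction by 0.09 and 0.03. E2F1 was at 0.16 and turned to -0.13. CCNE1, at 0.35 (-0.29 to 1.004), or 0.19 after correction, was not resolved. The replication median was -0.08 and the mitotic one -0.14, and after correction they were 0.00 and -0.15. At least 1.2-fold lower were 3 of 12 replication and 9 of 23 mitotic members, against 28.6% of all genes, and 3 of 12 and 5 of 23 after correction, against 17.2%. At this limit the shares lay near the background, with that of mitotic members somewhat above it. Below 0 lay 18 of 23 mitotic and 6 of 12 replication members. This compares with 52.1% of all genes and 57.4% of the 7673 genes that averaged 500 or more. After correction 17 of 23 and 6 of 12 lay below 0, against 50.8% of all genes. The correction turned the direction of 8 of the 42 members.

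**Figure D4:**
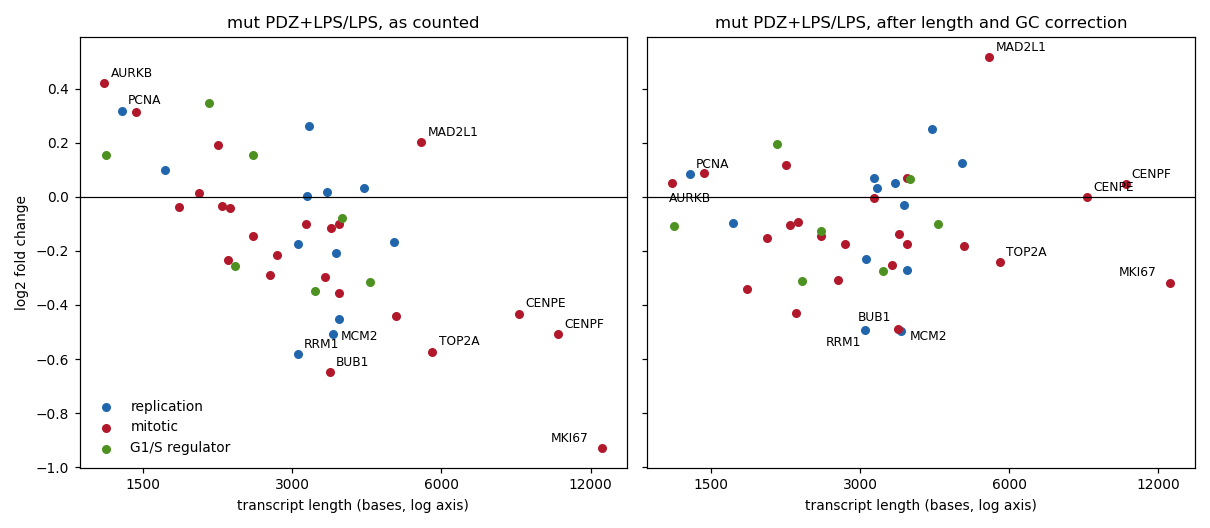
Log2 fold change of the 42 members in mut PDZ+LPS/LPS against transcript length (bases, log axis), as counted on the left and after the length and GC correction on the right. Spearman's rho was -0.61 on the left and -0.00 on the right, where a value near 0 follows largely from the correction itself. BUB1, RRM1 and MCM2 lay between -0.65 and -0.51 on the left and between -0.50 and -0.49 on the right.

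The 2 peptides, which differ only by the mutation, were compared with each other in mut PDZ+LPS/WT PDZ+LPS. No member was called at 2-fold, against 4.26% of all genes, and MKI67 (-0.88, or -0.24 after correction) and BUB1 (-0.65, or -0.48) passed 1.5-fold downward, against 10.6% of all genes. The replication median was -0.10 and the mitotic one -0.14, and after correction 0.01 and -0.10. RRM1 and MCM2 were lower with the mutant peptide by either value (-0.56 and -0.47, and after correction -0.47 and -0.48). The correction turned the direction of 13 of the 42 members in this comparison, among them AURKB, CENPE, CENPF and CDC6.

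Further cell cycle genes were counted in 5 more lists. In LPS/Control the median log2 fold change was -0.12 for 90 other mitotic genes, 67 of them below 0 and 18 at least 1.2-fold lower, and -0.02 for 65 other S phase genes, 36 below 0 and 5 at least 1.2-fold lower. Over all genes 50.2% were below 0 and 14.8% at least 1.2-fold lower. Of the 7673 genes that averaged 500 or more, 44% were below 0 and 4.89% at least 1.2-fold lower. The S phase list lay near or under the shares of all genes and above those of the deeper genes. The mitotic list lay above both, at 1.2-fold nearer to the share of all genes. Some genes of the mitotic list, such as SPC24, averaged less than 500. No gene of either list was called at 2-fold. The ends of the mitotic list were PSRC1, a spindle protein, at 1245 normalized counts in Control and 719 in LPS (-0.79), and CKAP2L, also of the spindle, at 1500.4 and 2624 (0.81). Those of the S phase list were DBF4, the activator of the CDC7 kinase (-0.44), and POLD3, a subunit of DNA polymerase delta (0.31). In WT PDZ+LPS/LPS the medians were 0.002 for mitotic and 0.022 for S phase genes. In mut PDZ+LPS/LPS they were -0.13 for mitotic and -0.09 for S phase genes, and -0.09 and -0.05 after correction, and the lowest genes were CASC5, a kinetochore scaffold (-0.82, or -0.31), and BRCA2, of homologous recombination (-0.79, or -0.24). The highest were CENPW, of the inner kinetochore (0.67, or 0.22), and ORC6, of the origin recognition complex (0.35, or 0.19).

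The 15 genes of the anaphase-promoting complex and its ubiquitin-conjugating enzymes had a median of -0.13 in LPS/Control, from ANAPC4 (-0.25) to UBE2D1 (0.32), with none called. In mut PDZ+LPS/LPS they ran from ANAPC1 (-0.75, or -0.25 after correction) to ANAPC11 (0.50, or 0.11). Among 35 expressed inhibitors and checkpoint genes, with a median of 0.07, 2 were called higher and 1 lower in LPS/Control, against 3.46% and 1.41% of all genes. PLK3, a stress-responsive Polo-like kinase, had 249 normalized counts in Control, 1675 in LPS, 1419 with WT PDZ and 1860.0 with mut PDZ (log2 fold change 2.75), and PLK2 had 2555, 7783, 7156 and 7424 (1.61). Control was by far the lowest library for both. CDKN2D, the CDK4 and CDK6 inhibitor p19, had 117, 56.4, 53.5 and 94.0 (-1.04). CDKN1A, the CDK inhibitor p21, had 1791, 3269.8, 2908 and 2425, a log2 fold change of 0.87 under the 2-fold limit. With the mutant peptide against LPS the lowest was ATR, the kinase of the replication checkpoint (-0.87, or -0.40), and the highest CDKN2D (0.73, or 0.26).

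Of 33 expressed other G1 and transcription regulators, with a median of 0.02, 1 was called in LPS/Control, which is no larger a share than the 4.87% of all genes. MYC, a transcription factor of cell growth, had 4238 normalized counts in Control, 8904 in LPS, 8892 with WT PDZ and 9164 with mut PDZ, a log2 fold change of 1.07, with the 3 libraries with LPS close together. E2F5, a repressor-type E2F, was the lowest at -0.81, with 81.8 and 46.1 normalized counts in Control and LPS. In mut PDZ+LPS/LPS the kinase gene CDK6 was called lower, at 219 against 90.5 normalized counts (-1.27), and lay at -0.69 after correction, no longer past 2-fold. It was the only call of this list there, against 3.95% of all genes. CCNH, the cyclin of the CDK-activating kinase, was the highest at 0.45, or 0.35 after correction.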

How the data were processed

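Poly(A)-selected RNA of BEAS-2B cells was sequenced paired-end with a directional kit, 1 library for each of 4 conditions. The authors removed adapters and reads below Q20 with FASTX_Trimmer and BBMap, aligned with TopHat to hg19 (per the submitters' processing notes) and deposited whole-number read counts per gene symbol. Their methods name FPKM with geometric normalization in EdgeR, yet the deposited counts are not normalized. The counting tool, annotation and strand setting are not given in the sources used here.

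Counts were divided by geometric size factors (DESeq2 1.42.0), and 1 was added before log2. A gene was called at a fold of at least 2 with 16 or more normalized counts in either library compared. Backgrounds at 1.2-fold and 1.5-fold used the 13072 genes that averaged 16 or more. Exact (Clopper-Pearson) 95% intervals were computed on the 2 counts given the size factors. For the correction, lowess curves (span 0.3) over transcript length and then over GC content were subtracted (GENCODE 29, for 12130 genes). Levels per kilobase used the same lengths. Motifs were searched in RefSeq promoter sequences (GRCh38.p14). The steps were tested on simulated counts.

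Values in every library were printed for members past 2-fold, for the 3 highest and 3 lowest of LPS against Control and of either peptide library against LPS, and for CDK1, CCNB1, CCND1, MKI67, TOP2A, PCNA and E2F1. The highest and lowest of each further list were named, with CDKN1A and MYC. Other members were named to account for all 42, and PLK2 after its value was seen. The members and lists were chosen with earlier results of these data known, so none is independent support. Alternatives were scaling by upper quartile, by total count or by TMM (edgeR 4.0.16), size factors without mut PDZ+LPS, a pseudocount of 5, no expression rule, a log2 value of 6, folds of 1.5 and 3, and the length correction. The 1.2-fold limit and a correction on principal transcripts were added after the data were examined. R 4.3.3, Python 3.11.15, pandas 2.3.3, scipy 1.17.1 and statsmodels 0.14.6 were used.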

Additional observations from a re-analysis of the deposited data

Results flagged for a closer look

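PCNA, the sliding clamp of the replication fork, lay on opposite sides of the LPS library with the 2 peptides. The wild-type peptide library had a log2 fold change of -0.067 (-0.11 to -0.02) against LPS. For the mutant peptide library the value was 0.32 (0.27 to 0.37), and both lay beyond counting error. After the length and GC correction the values were -0.060 and 0.086. Both comparisons use the same LPS library, and the difference between them was not tested, since each condition had 1 library.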

How the results depend on the processing

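No paired analysis was possible because each condition had 1 library, and for the same reason no replicate could be left out. The gap between replication and mitotic medians moved by less than the spread among members under all 9 alternatives in all 6 comparisons. For most alternatives this was fixed in advance. Scaling shifts both medians alike, and the pseudocount and expression-rule alternatives left them nearly unchanged. Only the length and GC corrections could move the gap by much. On the longest transcripts it went from 0.06 to 0.15 in mut PDZ+LPS/LPS and from 0.04 to 0.12 in mut PDZ+LPS/WT PDZ+LPS. The median of all genes under total-count scaling was -0.13 in LPS/Control and -0.12 for either peptide library against Control. Under it the LPS/Control medians were -0.14 (replication), -0.16 (other S phase), -0.25 (other mitotic), -0.11 (other G1 and transcription regulators) and -0.26 (anaphase-promoting complex), and the WT PDZ+LPS/Control medians -0.16 (replication) and -0.29 (mitotic). MYC was then not called (0 of that list), and 1 member was called in mut PDZ+LPS/Control. Upper-quartile scaling gave -0.085, -0.18 and -0.19 in LPS/Control for other S phase, other mitotic and anaphase-promoting complex genes, and -0.092 for replication members in WT PDZ+LPS/Control.

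With a pseudocount of 5, and with a fold of 3, 0 members were called in LPS/Control. A fold of 3 also left 0 other G1 regulators called in LPS/Control and in mut PDZ+LPS/LPS. A fold of 1.5 called 2 members in LPS/Control. With the wild-type peptide it called 1 against LPS and 1 against Control. With the mutant peptide it called 2 against LPS, 2 against WT PDZ+LPS and 9 against Control, where 10.7% of all genes were higher and 11.7% lower at that fold. Of the further lists it called 4 other mitotic genes, 11 inhibitors and 5 other G1 regulators in LPS/Control and 1 other G1 regulator in WT PDZ+LPS/LPS. With the mutant peptide against LPS it called 4 other S phase, 6 other mitotic, 8 inhibitor, 4 other G1 and 1 anaphase-promoting complex genes. At that fold 6.33% of all genes were higher and 4.13% lower in LPS/Control, 1.66% and 1.75% in WT PDZ+LPS/LPS, 6.75% and 9.6% for the mutant peptide against LPS, 7.25% and 10.6% for it against the wild-type, and 6.22% and 3.88% for the wild-type against Control. Without the expression rule the other G1 regulators had 1 call with the wild-type and 3 with the mutant peptide against LPS, and the inhibitors 1 with the mutant. No share of all genes stands beside these counts. The same holds for the counts with a pseudocount of 5, a fold of 3, total-count scaling or the length and GC correction. None of these counts is therefore read against a background. The length and GC correction left 0 of the other G1 regulators called in mut PDZ+LPS/LPS, with a median of -0.035, and 0 on principal transcripts. It moved the other S phase median in WT PDZ+LPS/LPS to 0.011, and to 0.0094 on principal transcripts. Beyond what the construction of each alternative shows, the cause was not tested. With 95 reads or fewer in every library, CCNE1 has the widest counting interval of the members.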

Other observations

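Some regulators outside the 42 genes differed between LPS and Control by less than 2-fold, and they were chosen after their values were seen. CDKN2B, the CDK4 and CDK6 inhibitor p15, had a log2 fold change of 0.79 in LPS/Control, CDKN1B, the CDK inhibitor p27, 0.57, and GADD45A, a stress-induced growth arrest gene, 0.63. CDKN2C, the related inhibitor p18, lay at -0.64. The E2F repressors E2F7 and E2F8 lay on opposite sides, at 0.62 and -0.67. GADD45A had 582 normalized counts in Control, 904 in LPS, 937 with WT PDZ and 1495 with mut PDZ, with a mut PDZ+LPS/LPS log2 fold change of 0.72, or 0.48 after the length and GC correction. FAM83D, a spindle protein, lay at -0.68 in LPS/Control, PIF1, a DNA helicase, at -0.71 and CDCA2, of mitotic chromosomes, at -0.53.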
